A study of Mus musculus with 91 samples.

Results

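The comparison of *Dnmt1*-KO with control epiblast at E6.5 rested on 8 small RNA libraries, 4 of each group, out of 91 in the series. Every mature miRNA of the count table was included, and a library belonged to a group by its title (KO or Con, epi, E6.5). The libraries were made by CAS-seq, in which cDNA made from adapter-ligated small RNA is treated with Cas9 and a guide RNA before amplification, so that sub-nanogram inputs can be sequenced. According to the study's methods, the knockout was made in zygotes: base editor mRNA and sgRNA were injected to place a premature stop codon in *Dnmt1*, and the embryos developed in pseudopregnant ICR females. All 8 libraries carry the same strain label, a C57BL/6 male crossed to an F1 female, and the labels give E6.5 embryo as the source. Editing was done embryo by embryo and not in an established line. The labels do not say whether a library was 1 embryo or a pool, nor what the controls received. The epiblast (Epi) is the embryonic part of the conceptus, and the extraembryonic ectoderm (Exe) is the trophoblast tissue above it. 3 other sets of libraries were used to place the comparison: *Dnmt3a/3b*-DKO and *Dnmt*-null Epi at E6.5 (4 libraries each, made by the same method), Epi at E7.5 (4 *Dnmt1*-KO and 3 control), and Exe at E6.5 (4 *Dnmt1*-KO and 4 control). The labels do not name separate animals for the replicates, so that p-values measure the spread between these libraries, which may be partly technical.

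DNMT1 is the maintenance methyltransferase: it copies CpG methylation onto the new DNA strand at replication, whereas DNMT3A and DNMT3B place new methylation. Methylation of one parental copy keeps imprinted genes silent on that copy, and methylation of germline gene promoters, which is acquired around implantation, keeps many of them silent in the soma. Both kinds of control reach miRNAs. The *Dlk1-Dio3* domain encodes a large group of miRNAs expressed from the maternal chromosome, an X-linked cluster encodes miRNAs known from testis and germ cells, and an intron of the imprinted *Sfmbt2* gene encodes a cluster known from trophoblast. A mature miRNA finds its targets mainly through its seed, bases 2 to 8.

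The sequences below are those of the miRNAs on which the results turn. They are RefSeq mature sequences (GRCm38.p6) written 5′ to 3′, with the seed in capitals. The first 6 are of the X-linked cluster and rose in *Dnmt1*-KO Epi.
miR-470-5p: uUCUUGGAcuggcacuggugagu
miR-741-3p: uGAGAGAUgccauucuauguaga
miR-871-3p: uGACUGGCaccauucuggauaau
miR-880-3p: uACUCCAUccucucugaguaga
miR-465a-3p: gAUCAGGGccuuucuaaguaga
miR-743b-3p: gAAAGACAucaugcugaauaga
Those of the *Dlk1-Dio3* domain show 4 unlike seeds among the members with the smallest p-values.
miR-127-3p: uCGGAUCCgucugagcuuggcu
miR-370-3p: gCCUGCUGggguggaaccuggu
miR-673-5p: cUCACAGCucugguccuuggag
miR-541-5p: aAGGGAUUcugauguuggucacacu
The last set holds miR-1195, which had the smallest p-value of all, and miRNAs that fell. miR-291a-5p is shown because it has the same seed as miR-291b-5p, from which it differs at 2 of 22 positions (C1G and U22C, with the base of miR-291a-5p first and positions counted from the 5′ end).
miR-1195: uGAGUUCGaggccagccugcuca
miR-291b-5p: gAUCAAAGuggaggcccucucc
miR-291a-5p: cAUCAAAGuggaggcccucucu
miR-501-3p: aAUGCACCcgggcaaggauuug
miR-200c-3p: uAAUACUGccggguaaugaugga
miR-483-5p: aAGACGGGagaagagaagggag

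Total counts were 600821, 384056, 152860 and 251078 in *Dnmt1*-KO replicates 1 to 4 and 286288, 281158, 447629 and 458837 in control replicates 1 to 4. The miR-302 and miR-367 cluster, which marks primed epiblast, took 14.9–23.3% of counts in these 8 libraries and 0.635–3.43% in the Exe libraries. By chi-squared per degree of freedom, where counting error alone gives about 1, the control libraries stood as 2 pairs, with 18.1 between replicates 1 and 2, 15.2 between 3 and 4, and 51.4–86.4 across the pairs. By the correlation of log2 CPM, which weights scarce miRNAs more, only control replicates 3 and 4 stood out as a pair (0.981, against 0.929–0.936 for the others). Among the *Dnmt1*-KO libraries, replicates 3 and 4 were the closest, with a chi-squared per degree of freedom of 14.8 (23.9–62.1 for the others). Their correlation was 0.956 (0.913–0.935 for the others). *Sfmbt2* cluster miRNAs, which took 13.1–26.0% of counts in Exe, took 6.68% and 10.02% in control Epi replicates 1 and 2 and 2.56% and 2.10% in replicates 3 and 4. The miR-302 and miR-367 cluster separated the same libraries, at 168163 and 150497 normalized CPM (counts scaled to a common library total with TMM factors) in replicates 1 and 2 and 245844 and 263045 in replicates 3 and 4. The labels name no batch. Counts for the main loci and the fold changes of the leading miRNAs are therefore also given without control replicates 1 and 2, where the median log2 fold change of all miRNAs tested shifted from -0.01 to -0.36. *Dnmt1* mRNA is not measured in small RNA libraries, so the edit could not be checked here. In these bulk samples, fewer cells of a type and less RNA per cell cannot be told apart.

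Of 1504 mature miRNAs in the table, 409 were tested. 25 (6.11%) were higher in *Dnmt1*-KO Epi and 24 (5.87%) were lower, where a change counted if it exceeded 0.5 on the log2 scale in either direction at an unadjusted p under 0.05. Near-identical paralogs share reads: the 409 rows hold 381 distinct sets of counts, and the 49 that passed hold 40, of which 23 were higher and 17 lower. 3 miRNAs had an adjusted p under 0.05 in edgeR's quasi-likelihood test with Benjamini-Hochberg adjustment, and all 3 were higher. The spread in this fit was shared with the *Dnmt*-null libraries, which had only 45242–123169 total counts. The number with an adjusted p under 0.05 was 12 without *Dnmt*-null replicate 1, 12 with the 2 groups fitted alone and 0 without *Dnmt1*-KO replicate 1. The miRNAs that passed fell largely into few loci. Of the 409 tested, the X-linked cluster held 21, *Dlk1-Dio3* 80 and the *Sfmbt2* intron list 33. Of the 25 that were higher, 13 came from the X-linked germline cluster (52.0%) and 7 from *Dlk1-Dio3* (28.0%), and the others were miR-1195, miR-1946a, miR-1946b, miR-335-3p and miR-375-3p. Of the 24 that were lower, 18 came from the *Sfmbt2* intron (75.0%), and the others were miR-483-5p, miR-483-3p, let-7e-5p, miR-200c-3p, miR-291b-5p and miR-501-3p. The libraries of the 2 groups did not overlap for 23 of the 25 and 15 of the 24. Among all 409 tested, every *Dnmt1*-KO library lay above every control library for 33 (8.07%) and below for 26 (6.36%).

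**Figure D1:**
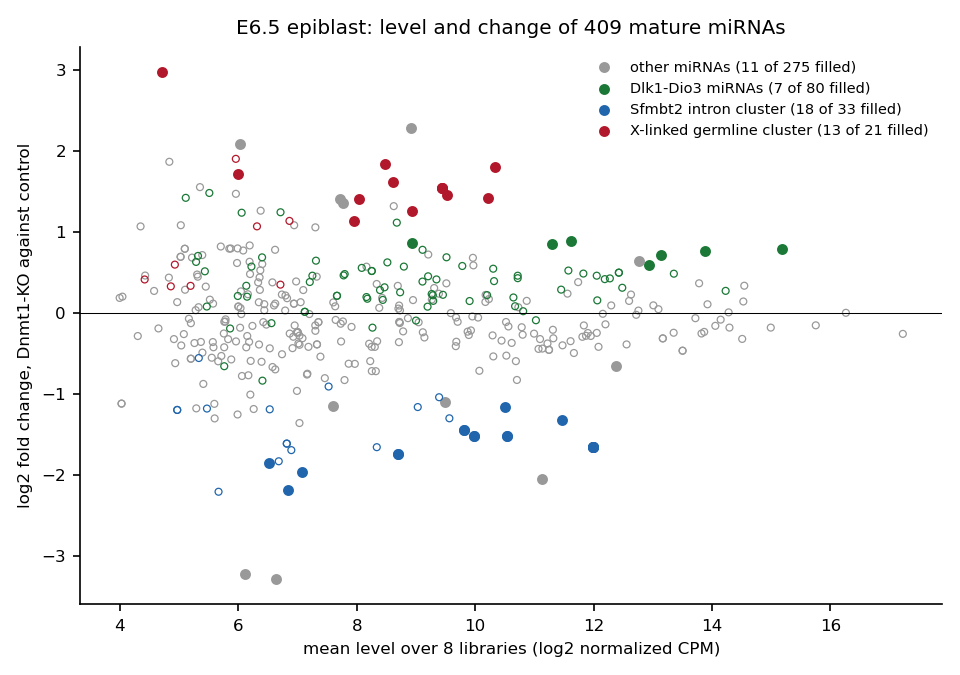
Mean level over the 8 E6.5 Epi libraries (log2 normalized CPM) against log2 fold change, *Dnmt1*-KO over control, for each of the 409 miRNAs tested, coloured by locus, with filled points for those past the thresholds. The X-linked cluster lies above 0 in 21 of 21 members and the *Sfmbt2* cluster below 0 in 33 of 33, while the *Dlk1-Dio3* point furthest to the right is miR-127-3p.

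The X-linked germline cluster lies on the minus strand of chrX:66776760-67988440 (GRCm38). Of its 38 mature miRNAs in the table, 21 were tested, 13 were higher and 0 lower, and all 21 had a log2 fold change above 0, against 201 of 409 (49.1%) over all miRNAs. The low-count filter admits a miRNA with enough counts in the libraries of 1 group alone. Members scarce in control could thus enter through mutant libraries, so the shared sign is partly shaped by the filter. The median log2 fold change was 1.43, and that of all miRNAs was -0.01. Members that repeat a sequence are not independent: the 21 hold 19 distinct sets of counts, of which 11 were higher. Summed over distinct members, the level was 6377–11810 normalized CPM in *Dnmt1*-KO and 1513–4279 in control, a ratio of means of 2.80. As a share of all counts the cluster took 1.39%, 0.767%, 1.197% and 1.16% in *Dnmt1*-KO replicates 1 to 4 and 0.542%, 0.505%, 0.372% and 0.169% in control replicates 1 to 4, so that it remained a small part of the miRNA pool. The lowest knockout library lay above the highest control library.

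**Figure D2:**
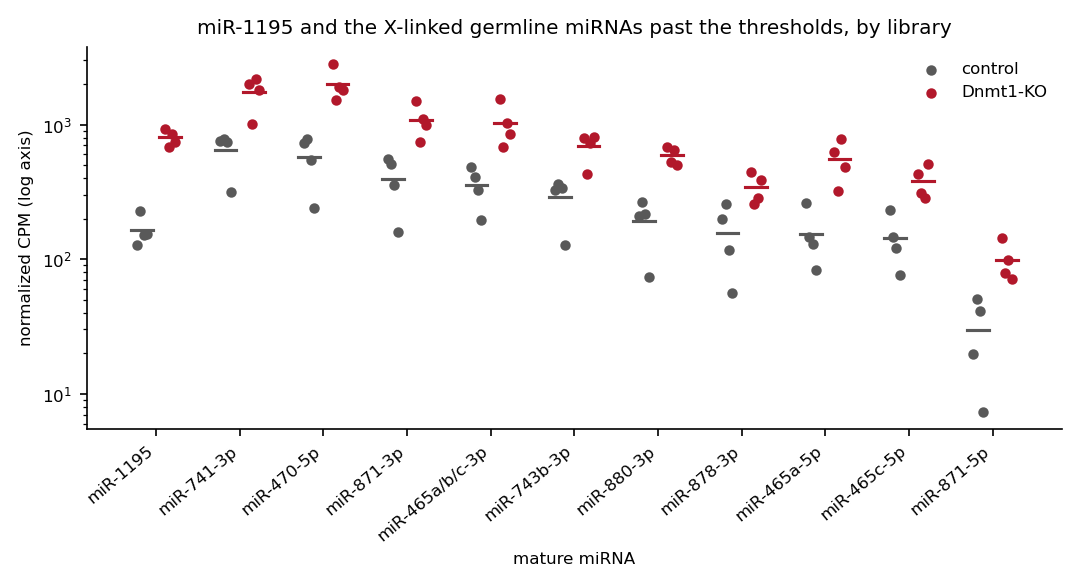
Normalized CPM (log axis) of miR-1195 and of X-linked cluster miRNAs past the thresholds in each E6.5 Epi library (points) of *Dnmt1*-KO and control, with the mean of each group as a line (miR-881-5p, with a control library at 0, is not drawn). For miR-470-5p the *Dnmt1*-KO libraries sit between 1511 and 2802 and the control libraries between 238 and 779.

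miR-470-5p (chrX:66813995-66814017, minus strand, in no other annotated gene) had the smallest p-value of the cluster. Its normalized CPM was 2802, 1511, 1896 and 1795 in *Dnmt1*-KO replicates 1 to 4 and 734, 779, 548 and 238 in control replicates 1 to 4. Each knockout library lay above each control library, with a log2 fold change of 1.80 and a standard error (SE) of 0.35 (edgeR adjusted p = 0.00903), a 3.49-fold rise. miR-741-3p (chrX:66796809-66796831) stood at 2003, 1010, 2166.45 and 1795 in *Dnmt1*-KO and 757, 779, 743 and 314 in control. The groups did not overlap here either, with a log2 fold change of 1.43 (an SE of 0.34 and an edgeR adjusted p = 0.0491). The adjusted p of miR-741-3p rose above 0.05 when any 1 library of the comparison other than *Dnmt1*-KO replicate 2 was left out, reaching 0.339 without *Dnmt1*-KO replicate 3. That of miR-470-5p rose above it, to 0.0643, without *Dnmt1*-KO replicate 1 and stayed below it without any other single library of the 8. Without control replicates 1 and 2 the log2 fold changes were 2.18 for miR-470-5p (edgeR adjusted p = 0.0362) and 1.56 for miR-741-3p (edgeR adjusted p = 0.246), and without replicates 3 and 4 they were 1.41 (edgeR adjusted p = 0.105) and 1.19 (edgeR adjusted p = 0.207).

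miR-871-3p stood at 1498, 742, 1093 and 995 in *Dnmt1*-KO and 559, 510, 353 and 160 in control (log2 fold change 1.45, adjusted p = 0.0841). miR-880-3p stood at 681, 527, 652 and 497 in *Dnmt1*-KO and 211, 266, 217 and 73.7 in control (log2 fold change 1.62). Neither passed the adjusted threshold, and for both the groups did not overlap. miR-465a-3p, miR-465b-3p and miR-465c-3p have 1 mature sequence and the same counts in these libraries, 1559, 677, 1034 and 856 against 484, 409, 329 and 194 normalized CPM, and count as 1 measurement (log2 fold change 1.55). The opposite arms, miR-465a-5p and miR-465c-5p, share another seed (AUUUAGA) and were higher by 1.84 and 1.41 on the log2 scale. miR-743b-3p (1.26), miR-871-5p (1.72) and miR-878-3p (1.14) also passed. The scarcest member to pass, miR-881-5p, had 32, 14, 4 and 18 raw counts in *Dnmt1*-KO and 0, 2, 3 and 3 in control. Per library total scaled by its TMM factor this was a ratio of 8.75, with an exact 95% counting interval of 4.20–21.1. Both arms were tested for 6 hairpins of the cluster, and both were above 0 in all 6.

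Without control replicates 1 and 2, 10 of the 21 X-linked members were higher, with a median of 1.79, and without control replicates 3 and 4 it was 6, with a median of 1.2003. The cluster was also more abundant in Exe than in Epi: 0.543–1.60% of counts in control Exe. The *Sfmbt2* cluster, at higher levels still in Exe, was lower in *Dnmt1*-KO Epi. The part of Exe tissue in the rise of the X-linked cluster was not tested.

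The *Dlk1-Dio3* domain (chr12:109463337-110279229, GRCm38) holds 113 mature miRNAs of the table. 80 were tested, of which 7 were higher, near the 6.11% higher among all 409, and 0 lower. 73 had a log2 fold change above 0. The median was 0.42, so that the change of the domain was broad and small, and no member had an adjusted p under 0.05 in edgeR's quasi-likelihood test. Counts on the domain made up 21.8%, 23.8%, 19.6% and 18.96% of all counts in *Dnmt1*-KO replicates 1 to 4 and 14.2%, 13.5%, 15.2% and 13.7% in control replicates 1 to 4. The means were 21.03% ± 2.21 (SD, n = 4) and 14.1% ± 0.784 (SD, n = 4), a difference of 6.89 percentage points, and the groups did not overlap. This share needs no scaling between libraries. With miR-127-3p left out the means were 16.4% and 11.5%, a difference of 4.84 percentage points.

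**Figure D3:**
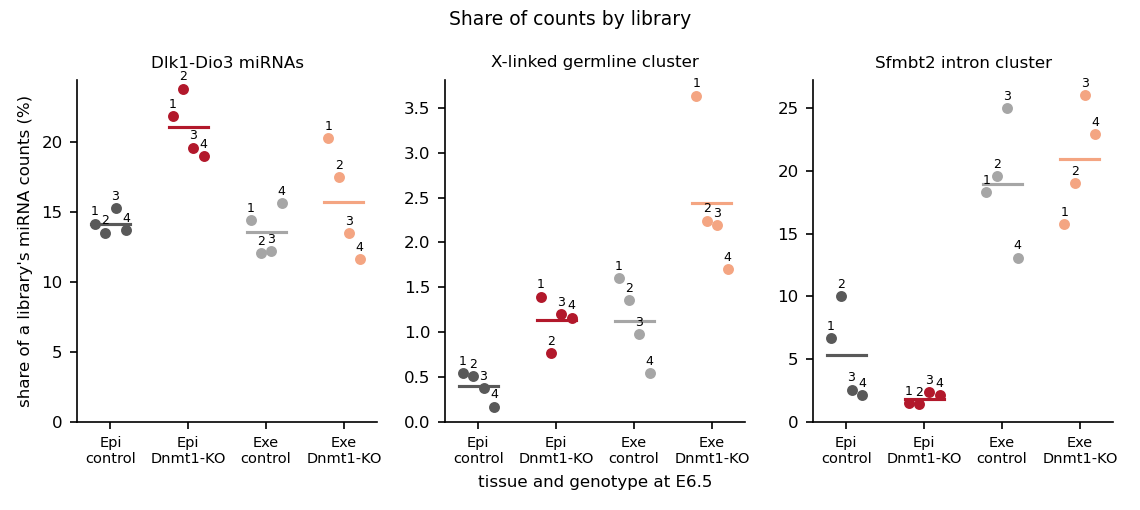
Percent of each library's miRNA counts on the *Dlk1-Dio3*, X-linked and *Sfmbt2* miRNAs at E6.5, by tissue (Epi, Exe) and genotype, with points for libraries, numbered by replicate, and lines for means. In Epi the *Dlk1-Dio3* share is 18.96–23.8% in *Dnmt1*-KO and 13.5–15.2% in control, while the *Sfmbt2* share of control Epi spreads from 2.10% to 10.02%.

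miR-127-3p (chr12:109592888-109592909, plus strand, antisense to an exon of *Rtl1*) is complementary to the transcript of *Rtl1*, a retrotransposon-derived gene expressed from the paternal copy. Its normalized CPM was 55534, 58515, 40932 and 34209 in *Dnmt1*-KO and 26347, 25259, 30386 and 27178 in control. The knockout libraries all lay above the control libraries and spread more widely, 47298 ± 11626 against 27292 ± 2207 (SD, n = 4). The log2 fold change was 0.79 (SE 0.20, adjusted p = 0.0603), and 0.52 without control replicates 1 and 2, where it did not pass. miR-370-3p (chr12:109618305-109618326, in an intron of *Rian*) stood at 21080, 20636, 19215 and 15222 in *Dnmt1*-KO and 10037, 9551, 13782 and 11584 in control. Its groups did not overlap either, with a log2 fold change of 0.76 (an SE of 0.21 and an edgeR adjusted p = 0.0841), and 0.39 without control replicates 1 and 2.

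The members that passed came from each region of the domain, but only 1 was of the *Mirg* cluster, which held 51 of the 80 tested. Next to *Meg3*, the maternally expressed noncoding RNA of the domain, 2 of 12 passed (miR-673-5p, 0.85, and miR-665-3p, 0.89), with a median of 0.67. Of the miRNAs antisense to *Rtl1*, 3 of 11 passed (miR-127-3p, miR-434-5p, 0.71, and miR-431-3p, 0.87), with a median of 0.49. In the *Rian* region 1 of 4 passed (median 0.18). In the *Mirg* cluster, the largest of the domain, 1 of 51 passed (miR-541-5p), with a median of 0.42. miR-541-5p stood at 11505, 9134, 7441 and 9613 in *Dnmt1*-KO and 5711, 6009, 6929 and 6341 in control, with no overlap (log2 fold change 0.59). Of the members that passed, only miR-434-5p had overlapping groups. miR-409-3p, another abundant *Mirg* member, overlapped and was at 0.27 (SE 0.19, edgeR adjusted p = 0.693). Of 29 hairpins with both arms tested, both were above 0 in 24 and the arms differed in sign in 5. Without control replicates 1 and 2, 0 of the 80 passed and the median was 0.05, against -0.36 for all miRNAs, and without replicates 3 and 4 the median was 0.60, against 0.21.

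**Figure D4:**
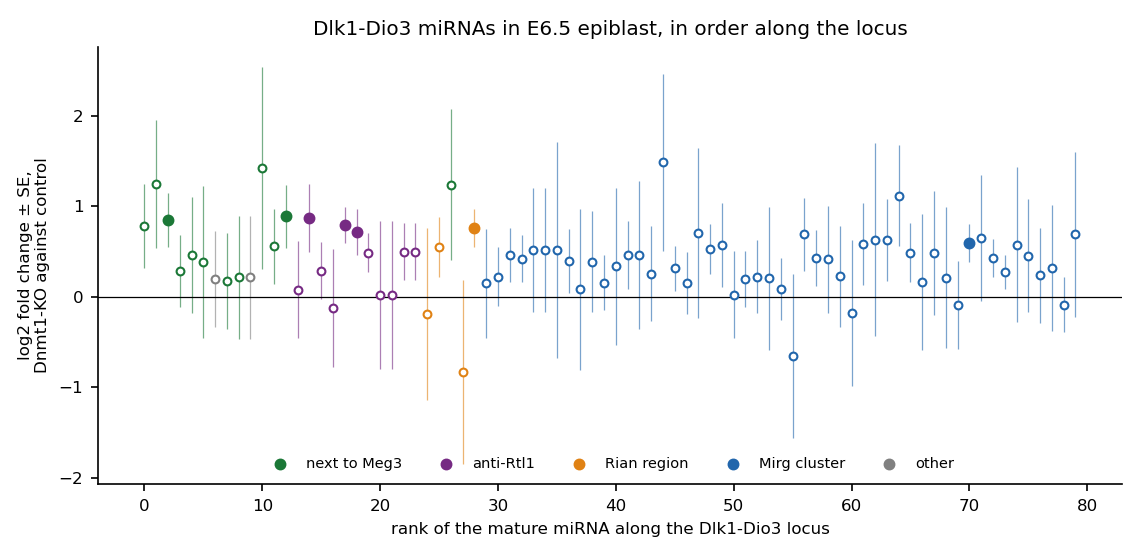
Log2 fold change ± SE, *Dnmt1*-KO over control E6.5 Epi, of the 80 tested miRNAs of the *Dlk1-Dio3* domain by their rank along the chromosome, coloured by region, with filled points for those past the thresholds. 73 of 80 lie above 0, and of the 7 filled points only 1 is of the *Mirg* cluster.

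The *Sfmbt2* intron cluster (chr2:10466663-10518279, GRCm38) was lower. Of 73 mature miRNAs that the list takes from the table by name, 68 mapped to this interval, 3 to other chromosomes, none of them tested, and 2 had no RefSeq match. 33 were tested, 32 of them in the interval and 1, miR-466a-3p, unmatched, and 18 were lower and 0 higher, and all 33 were below 0, with a median of -1.53. These 33 rows hold 24 distinct sets of counts, of which 11 were lower, because its paralogs share reads. Members scarce in *Dnmt1*-KO could enter the test through the other groups, so here too the shared sign is partly shaped by the filter. Its share of counts was 1.496%, 1.42%, 2.34% and 2.11% in *Dnmt1*-KO replicates 1 to 4 and 6.68%, 10.02%, 2.56% and 2.10% in control replicates 1 to 4. Control replicates 1 and 2 stood far above the knockout libraries, replicate 3 just above the highest of them, and replicate 4 among them. miR-466a-3p, a leading member, was at 1732, 1555, 2588 and 1989 normalized CPM in *Dnmt1*-KO and 7569, 11938, 2912 and 2466 in control. The groups overlapped, and the log2 fold change of -1.66 (an SE of 0.63 and an edgeR adjusted p = 0.248) became -0.64 without control replicates 1 and 2. miR-669a-5p did not overlap, at 507, 459, 507 and 602 against 1546, 2872, 842 and 720, but its log2 fold change of -1.53 became -0.78 and no longer passed. Without control replicates 1 and 2, 0 of 33 passed and the median was -0.69, against -0.36 for all miRNAs. Without control replicate 2 alone 0 passed with a median of -1.06, against -0.04. The cluster is known from trophoblast, and the part of Exe tissue in its change was not tested.

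miR-1195 (chr17:70860558-70860580, minus strand, within an intron of the pseudogene Gm9320 on the opposite strand) had the smallest p-value of all 409. Whether its reads came from this locus alone was not tested. Its normalized CPM was 933, 677, 856 and 748 in *Dnmt1*-KO and 128, 226, 151 and 155 in control. The lowest knockout library was well above the highest control library, and the log2 fold change was 2.28 (SE 0.43, adjusted p = 0.00903), a 4.86-fold rise. It passed the thresholds in each of 19 alternatives, and the log2 fold change was 2.19 with either pair of control libraries left out. Its edgeR adjusted p was then 0.237 without replicates 1 and 2 and 0.105 without replicates 3 and 4, both above 0.05. With single libraries left out, the adjusted p rose above 0.05, to 0.0511, without *Dnmt1*-KO replicate 1 and stayed below it without any other single library of the 8. miR-1946a was at 284, 362, 342 and 262 in *Dnmt1*-KO and 49.3, 190, 141 and 106 in control (log2 fold change 1.36). miR-1946b, of the same family, was at 244, 325, 369 and 288 against 32.9, 190, 129 and 108 (1.41).

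miR-291b-5p is a member of the miR-290 cluster, which is known from pluripotent cells. It was at 359, 2500, 389 and 206 normalized CPM in *Dnmt1*-KO and 4392, 5215, 2359 and 2414 in control. 3 of the knockout libraries lay far below the control libraries and replicate 2 lay within their range, and the log2 fold change was -2.05 (SE 0.56, adjusted p = 0.0841), and -1.67 without control replicates 1 and 2. miR-291a-5p, of the same seed, was at 22890, 17976, 21151 and 21029 against 24840, 28435, 23689 and 26735, with no overlap but a log2 fold change of -0.32 (an SE of 0.18 and an edgeR adjusted p = 0.520). The pair is nearly identical, and how reads were divided between them was not tested. The other 16 members of the cluster tested did not pass, but all 17 were below 0, with a median of -0.31, while 201 of all 409 were above 0. The 17 rows hold 13 distinct sets of counts. The summed level of the cluster was 120653–150369 normalized CPM in *Dnmt1*-KO and 142826–171765 in control, which overlap. The miR-302 and miR-367 cluster (0 of 9, median -0.28) and the miR-17-92 cluster with its paralogs (0 of 23, median -0.26) also held no miRNA that passed. The most abundant miRNA, miR-302b-3p, was at 123581–150657 in *Dnmt1*-KO and 123953–210873 in control, with overlapping groups (log2 fold change -0.26, SE 0.21).

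miR-501-3p (chrX:7241270-7241291, in an intron of the chloride transporter gene *Clcn5*) was at 612, 414, 296 and 516 in *Dnmt1*-KO and 1118, 1195, 723 and 914 in control. All knockout libraries lay below the control libraries, and the log2 fold change was -1.10 (SE 0.37, edgeR adjusted p = 0.197), and -1.03 without control replicates 1 and 2. miR-200c-3p, of the epithelial miR-200 family, was at 4720, 3664, 4116 and 4135 against 5800, 6303, 6532 and 7556, also with no overlap (-0.65, SE 0.25). Its log2 fold change was -0.96 without control replicates 1 and 2, and -0.53 without replicates 3 and 4, where it did not pass. The median of all miRNAs shifted as well, to -0.36 and 0.21 in these 2 refits. Of the 8 miR-200 family members tested it alone passed, and the median was -0.27. Summed over the family, the level was 8895–10727 normalized CPM in *Dnmt1*-KO and 11487–14793 in control, lower in every knockout library, and miR-200c-3p was the most abundant member. let-7e-5p, at 139, 118, 79.0 and 142 against 434, 190, 187 and 258, was the 1 of 8 let-7 and miR-98 members to pass (-1.15), and the family had a median of -0.46.

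Imprinted miRNAs outside *Dlk1-Dio3* differed in direction one by one. Of 8 tested from the *Gnas*, *Mest*, *Igf2* and *H19* domains, 1 was higher and 2 were lower, with a median of 0.09. Their summed share of counts was 2.80–3.41% in *Dnmt1*-KO and 2.11–2.57% in control, with no overlap, while their summed normalized CPM, at 26294–34509 and 21264–28054, did overlap. miR-483-5p, in an intron of the growth factor gene *Igf2* (chr7:142654968-142654989), was at 35.7, 10.5, 19.8 and 3.74 in *Dnmt1*-KO and 309, 316, 60.9 and 36.8 in control. In *Dnmt1*-KO replicates 3 and 4, 3 raw counts equal 19.6 and 11.9 CPM, so the values there lay near or under that level. The groups did not overlap, with the closest knockout and control libraries nearly equal, and the log2 fold change was -3.29 (SE 1.27, adjusted p = 0.248). Without control replicates 1 and 2 it was -1.61 and did not pass. Its opposite arm, miR-483-3p, was at -3.23. miR-335-3p, in an intron of *Mest*, had overlapping groups and was at 0.64 (SE 0.30), and in 12 of 19 alternatives it did not pass.

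Markers of other cell types were scarce, and 1 of 4 lists had a summed level that did not overlap between the groups. The 4 lists together (visceral endoderm and gut, blood and endothelium, mesenchyme and smooth muscle, neural) held 22 tested miRNAs, of which 1 was higher and 0 lower, and the summed level was 3292–4076 normalized CPM in *Dnmt1*-KO and 2716–3917 in control. The 1 that passed was miR-375-3p, known from endoderm, at 162, 121, 92.2 and 48.6 in *Dnmt1*-KO and 42.8, 14.4, 17.0 and 24.6 in control (log2 fold change 2.09, SE 0.83). miR-142a-5p, known from blood cells, did not pass (1.32, SE 0.65, edgeR adjusted p = 0.440), although its groups did not overlap. The blood and endothelium list as a whole was higher in every knockout library, at 869–1152 normalized CPM in *Dnmt1*-KO and 635–749 in control, a ratio of means of 1.44, with 0 of 10 past the thresholds. miR-142a-5p was its most abundant member in *Dnmt1*-KO. Its members went both ways: of the 10 tested, 6 had a log2 fold change above 0, among them miR-486a-5p (0.79), while miR-126a-3p was at -0.39. Among the untested members, miR-223-3p had 0 counts in all 8 libraries and miR-451a had 0, 3, 7 and 2 counts in *Dnmt1*-KO and 8, 2, 9 and 4 in control. The part of blood cells in any result was not tested. The miR-29 and miR-148 and miR-152 families, which are known to target DNA methyltransferase mRNAs, had 0 of 5 past the thresholds and a median of -0.36.

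Compared directly with the other mutants at E6.5, 18 miRNAs (4.40%) were higher and 22 (5.38%) lower in *Dnmt1*-KO Epi than in *Dnmt3a/3b*-DKO Epi, none with an adjusted p under 0.05 in edgeR's quasi-likelihood test (43 had an unadjusted p under 0.05). 30 (7.33%) were higher and 44 (10.8%) lower than in *Dnmt*-null Epi, 8 of them with an adjusted p under 0.05. The X-linked cluster was at a lower level in *Dnmt1*-KO than in either: 0 higher and 4 lower of 21 against *Dnmt3a/3b*-DKO (median -0.61, against 0.02 for all miRNAs), and 0 higher and 5 lower against *Dnmt*-null (median -0.55, against 0.09). miR-470-5p was at 3311–4738 normalized CPM in *Dnmt3a/3b*-DKO and 3238–7089 in *Dnmt*-null, above the *Dnmt1*-KO range (log2 difference -1.08, edgeR adjusted p = 0.191, and -1.33, adjusted p = 0.0496). Against *Dnmt3a/3b*-DKO, 14 *Dlk1-Dio3* miRNAs were higher and 0 lower (median 0.48). Against *Dnmt*-null, 3 were higher and 9 lower (median 0.01), and the domain took 15.9% ± 1.88 of counts in *Dnmt3a/3b*-DKO and 26.3% ± 3.35 in *Dnmt*-null (SD, n = 4 each). miR-1195 was 0.25 (SE 0.41) above *Dnmt3a/3b*-DKO and 0.02 (SE 0.41) above *Dnmt*-null on the log2 scale, and passed the thresholds in neither comparison. These comparisons share the *Dnmt1*-KO libraries.

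**Figure D5:**
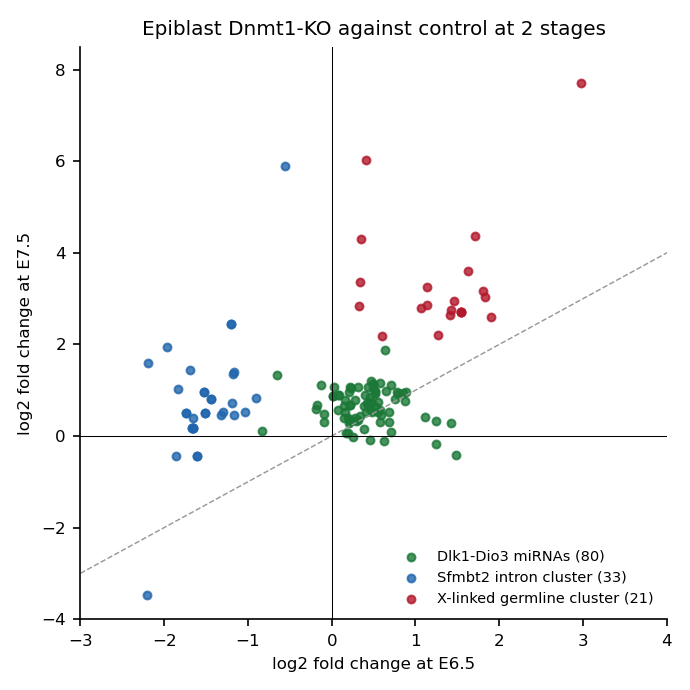
Log2 fold change of *Dnmt1*-KO over control Epi at E7.5 against that at E6.5 for the *Dlk1-Dio3* (80), *Sfmbt2* (33) and X-linked (21) miRNAs tested at both stages, with a dashed line of equal change. The X-linked members lie above 0 at both stages, with miR-470-5p at 1.80 at E6.5 and 3.17 at E7.5, and the *Sfmbt2* members lie below 0 at E6.5 and mostly above 0 at E7.5.

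Whether the effect of *Dnmt1*-KO differed between the stages was tested as the E7.5 effect minus the E6.5 effect in Epi: 69 of 574 miRNAs (12.0%) had a larger and 15 (2.61%) a smaller value at E7.5, 4 of them with an adjusted p under 0.05. The median of all was 0.21. For the X-linked cluster 14 of 25 had a larger value at E7.5, with a median difference of 1.74, but none had an adjusted p under 0.05. Its share of counts was 1.37–1.61% in *Dnmt1*-KO Epi at E7.5 and 0.116–0.319% in control. For *Dlk1-Dio3* 9 were larger and 1 smaller (median 0.36), and its share at E7.5 was 21.9–24.7% in *Dnmt1*-KO and 12.98–13.8% in control. The *Sfmbt2* cluster, lower at E6.5, had a median of 0.52 at E7.5. 28 of 42 of its miRNAs had a larger value at E7.5, with a median difference of 2.19. The difference for miR-669a-5p was 2.66 (SE 0.58, adjusted p = 0.0361). This difference holds the E6.5 control libraries with the high *Sfmbt2* share.

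The tissue difference, the effect in Exe minus that in Epi at E6.5, was larger for 32 of 458 miRNAs (6.99%) and smaller for 10 (2.18%), none with an adjusted p under 0.05 in edgeR's quasi-likelihood test (42 had an unadjusted p under 0.05). The X-linked cluster had 0 members past the thresholds in either direction (median difference -0.51). Its share in Exe was 3.64%, 2.24%, 2.19% and 1.70% in *Dnmt1*-KO and 1.60%, 1.36%, 0.974% and 0.543% in control. For *Dlk1-Dio3* 0 were larger and 2 smaller in Exe (median difference -0.27), and its share there was 11.6–20.3% in *Dnmt1*-KO and 12.0–15.6% in control, which overlap. Within Exe, 7 of its 80 tested miRNAs were higher in *Dnmt1*-KO and 0 lower (median 0.26), against 34 of 458 higher over all miRNAs. For miR-127-3p, at -0.17 in Exe, the difference was -0.98 (SE 0.36, edgeR adjusted p = 0.293). In the *Sfmbt2* cluster 20 of 50 had a larger value in Exe (median difference 1.45), where the *Dnmt1*-KO effect itself had a median of -0.02.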

How the data were processed

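Small RNA libraries were sequenced by CAS-seq. As the study's methods describe, fastp 0.20.1 was used by the authors for trimming and Bowtie 1.2.1.1 for alignment to GRCm38, after which reads were assigned to miRBase mature miRNAs with some tolerance at the 3′ end. The authors deposited the resulting whole-number count of each mature miRNA per library, unnormalized. DESeq2 1.30.1 is named for their comparisons. CPM, percent shares and log2 values were computed here. Normalized CPM uses the library total times its TMM factor. The 16 E6.5 Epi libraries were fitted in 1 quasi-likelihood model (edgeR 4.0.16 in R 4.3.3) after filterByExpr, applied by group with min.count 10. The study's thresholds were used: a change of more than 0.5 in log2 in either direction and an unadjusted p under 0.05. Adjusted p-values are Benjamini-Hochberg over all miRNAs tested. SE is the log2 fold change divided by the square root of F. Effects at E7.5 and in Exe were fitted with E6.5 Epi as interaction contrasts. A sequence matched for 1275 of 1504 miRNAs. The sources do not mention molecular identifiers, so counting intervals cover counting error only. No pair of replicates looked like copies (lowest chi-squared per degree of freedom 14.8). The fit was tested on simulated counts. The miRNAs named are those with an adjusted p under 0.05, the 10 with the smallest p in each direction past the thresholds, the *Dlk1-Dio3* miRNAs past them, miRNAs the study names, the 10 most abundant, and leading members of each list. miR-1946a and miR-1946b were named after their values were seen. The members and lists were chosen with earlier results of these data known.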

Additional observations from a re-analysis of the deposited data

Results flagged for a closer look

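7 of 152 groups of 4 libraries, over 76 named miRNAs, had 1 library far from the others by Dixon's criterion, and chance flags about 1 in 20. In control Epi these were replicate 4 for miR-741-3p (314 normalized CPM) and miR-743b-3p (128), replicate 1 for miR-881-5p (0), miR-295-3p (53029) and miR-10a-5p (55.9). In *Dnmt1*-KO Epi they were replicate 2 for miR-291b-5p (2500) and replicate 3 for miR-124-3p (191). 

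4 miRNAs had a *Dnmt1*-KO effect in Epi that differed between the stages with an adjusted p under 0.05 in edgeR's quasi-likelihood test. The E7.5 effect minus the E6.5 effect was 2.66 on the log2 scale for miR-669a-5p and miR-669p-5p, which have the same counts, 3.93 for miR-669l-5p and -2.21 for miR-375-3p. The first 3 are of the *Sfmbt2* cluster, which was high in 2 of the 4 E6.5 control libraries.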

How the results depend on the processing

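Of 47 named miRNAs that passed, 7 did so under every alternative (miR-1195, miR-470-5p, miR-741-3p, miR-871-3p, miR-880-3p, miR-291b-5p and miR-501-3p) and 0 changed sign. Without control replicates 1 and 2, 14 of the 49 miRNAs still passed, the fewest of the 19 refits. There 11 miRNAs were higher, 12 lower and 15 named miRNAs passed, and *Dlk1-Dio3* had 0 higher (median 0.0546) and *Sfmbt2* 0 lower (median -0.69). Without control replicates 3 and 4 the X-linked cluster had 6 higher. These alternatives and those without *Dnmt*-null replicate 1 or with identical rows merged were chosen after seeing the data. Where a cause is not given, the cause was not tested.

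With single libraries left out, the comparison had 17–37 higher and 5–30 lower (5 without control replicate 2), 24–48 named miRNAs passed, *Dlk1-Dio3* had 5–15 higher (15 without *Dnmt*-null replicate 1, 11 without *Dnmt1*-KO replicate 4) and *Sfmbt2* 0–21 lower (0 without control replicate 2, 9 and 10 without *Dnmt1*-KO replicates 1 and 2). Against *Dnmt3a/3b*-DKO there were 10–26 higher (10 without its replicate 2), against *Dnmt*-null 27–49 lower (27 without *Dnmt1*-KO replicate 3). For the stage difference 11–31 were smaller and for the tissue difference 7–16.

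With the 2 groups fitted alone, 52 were higher and 43 lower, and *Dlk1-Dio3* had 22 higher. With TMM factors set without *Dlk1-Dio3*, which moved the median of all to 0.15, 40 were higher, 28 against *Dnmt3a/3b*-DKO, and 17 of *Dlk1-Dio3*. With no filter on low counts, 39 were higher and 41 lower, with 39 and 47 against *Dnmt3a/3b*-DKO, 53 higher against *Dnmt*-null, 35 smaller at E7.5, and 66 larger and 20 smaller in Exe. With DESeq2, 29 were higher against *Dnmt3a/3b*-DKO, 26 smaller at E7.5 and 17 smaller in Exe. With identical rows merged, *Sfmbt2* had 11 lower. Without miR-127-3p the *Dlk1-Dio3* share differed by 4.84 percentage points.

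With a Benjamini-Hochberg adjusted p under 0.05 as the sole criterion, 3 were higher and 0 lower, 3 named miRNAs passed, and 2 X-linked, 0 *Dlk1-Dio3* and 0 *Sfmbt2* miRNAs did. There were 0 and 0 against *Dnmt3a/3b*-DKO, 3 higher and 5 lower against *Dnmt*-null, 3 larger and 1 smaller at E7.5, and 0 and 0 in Exe. For the comparison itself, the number with an adjusted p under 0.05 was 10 with DESeq2, 12 with the 2 groups fitted alone and 14 with no filter on low counts. It was 12 without *Dnmt*-null replicate 1, and 0 without *Dnmt1*-KO replicate 1 or without control replicates 3 and 4.

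Replicate numbers do not pair the libraries: the correlations of deviations between same-numbered libraries were 0.12, -0.05, 0.05 and -0.03. With a replicate block 22 were higher and 15 lower, and *Sfmbt2* had 11 lower.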
